A study of Mus musculus with 8 samples.

Results

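The 47 genes described here encode the actin cytoskeleton of macrophages and the protein layers that tie it to integrins: the adhesion plaque, the Arp2/3, WASP and WAVE machinery of branched actin, the actin-bundling proteins and the ezrin-radixin-moesin (ERM) linkers. They were chosen by gene symbol and known function, with smooth muscle genes left out, and make up 47 of the 17364 genes in the deposited tables. The choice was made with earlier results of these data known. All 47 passed the filter on low counts, among 12462 genes tested. RNA sequencing had measured poly(A) RNA of bone-marrow-derived macrophages (BMDMs), cells grown from mouse bone marrow, in 4 libraries from wild-type mice and 4 from Sept2C111A mice. The cells behind all 8 libraries had been exposed to TNF-α, 30 ng/ml for 24 h, so no untreated state enters the comparison. The Sept2C111A allele is named for a change of cysteine to alanine in septin 2, a GTP-binding filament protein, and the title of the series concerns S-nitrosylated septin 2 in macrophage inflammation and migration. No source used here gives the strain, age or zygosity of the mice, or says that the libraries of a genotype came from separate mice or cultures. The p-values therefore refer to the spread among these libraries alone, and that spread may be technical.

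Macrophages move and hold on to surfaces through podosomes, dot-like contacts with a core of branched actin and a surrounding ring of integrins and plaque proteins. At the ring, talin and kindlin switch integrins on, and vinculin, paxillin, zyxin and the ILK-parvin complex couple them to actin filaments. The core is built by the Arp2/3 complex, which grows new filaments from the sides of old ones when WASP or the WAVE complex activates it. Crosslinkers, bundlers, myosin II and ERM proteins then shape the filaments and fasten them to the membrane.

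Total expected counts per library lay between 19543958 and 21288493. The macrophage genes Csf1r, Adgre1 and Lyz2 were measured at means of 3226, 1902 and 14365 CPM, counts scaled to a common library size, in wild-type libraries. The 12 stromal markers and the 8 smooth muscle markers had summed levels of 4475 to 5768 and 1163 to 1551 CPM in wild-type libraries. In Sept2C111A libraries these sums were 3552 to 4476 and 681 to 1046 CPM. Most of the wild-type sums came from Col1a1 and Col1a2 (means 2056 and 2002 CPM) and from Acta2 (1016 CPM). Others of the lists were nearly absent, such as Thy1, Lum, Myh11 and Des (0.31, 0.74, 0.52 and 0.76 CPM). The labels name BMDMs as the source of every library, while the extraction protocol they carry also describes the grinding of aortic samples. In such bulk RNA, fewer cells of a type cannot be told apart from less RNA per cell. Wild-type libraries had a biological coefficient of variation of 0.0604 and Sept2C111A libraries one of 0.138. Septin2 itself had a log2 fold change of -0.27 (SE 0.076, adjusted p = 0.063), and gene counts cannot show the changed codon.

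Of the 47 genes, 5 fell in Sept2C111A libraries, 0 rose and 42 were not called (edgeR, adjusted p under 0.05 over all tested genes). They were Parvg, Fscn1, Ezr, Actn1 and Flna, each at about 0.74 to 0.77 of its wild-type level. The share of falls was 10.6%, where 3.03% of all tested genes fell, and 3.43% rose. Because the 47 were chosen with earlier results of these data known, the comparisons with all tested genes are descriptive. At an unadjusted p under 0.05, 17 of the 47 were lower, where 12.5% of all tested genes were. At that threshold 0 of the 47 were higher, against 1534 of the 12462 tested genes. DESeq2 also called 0 of the 47 higher, against 704 of the 12462. For 14 genes (29.8%) every Sept2C111A library lay below every wild-type library, against 8.47% of all tested genes, and for 0 genes above, against 8.47%. Their median log2 fold change was -0.11, while that of all tested genes was 0.01. Single libraries moved the number of falls. Leaving out wild-type library 1, 2, 3 or 4 gave 1, 3, 1 and 2, where 0.915%, 1.75%, 0.827% and 1.19% of all tested genes fell. Leaving out Sept2C111A library 1, 2, 3 or 4 gave 8, 1, 5 and 11, where 3.99%, 1.19%, 2.45% and 7.81% of all tested genes fell. Without Sept2C111A libraries 2 and 3, in which the fewest genes had any count, it was 2 (1.65% of all tested genes). DESeq2 counted 12 falls, with 5.99% of all tested genes lower.

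**Figure D1:**
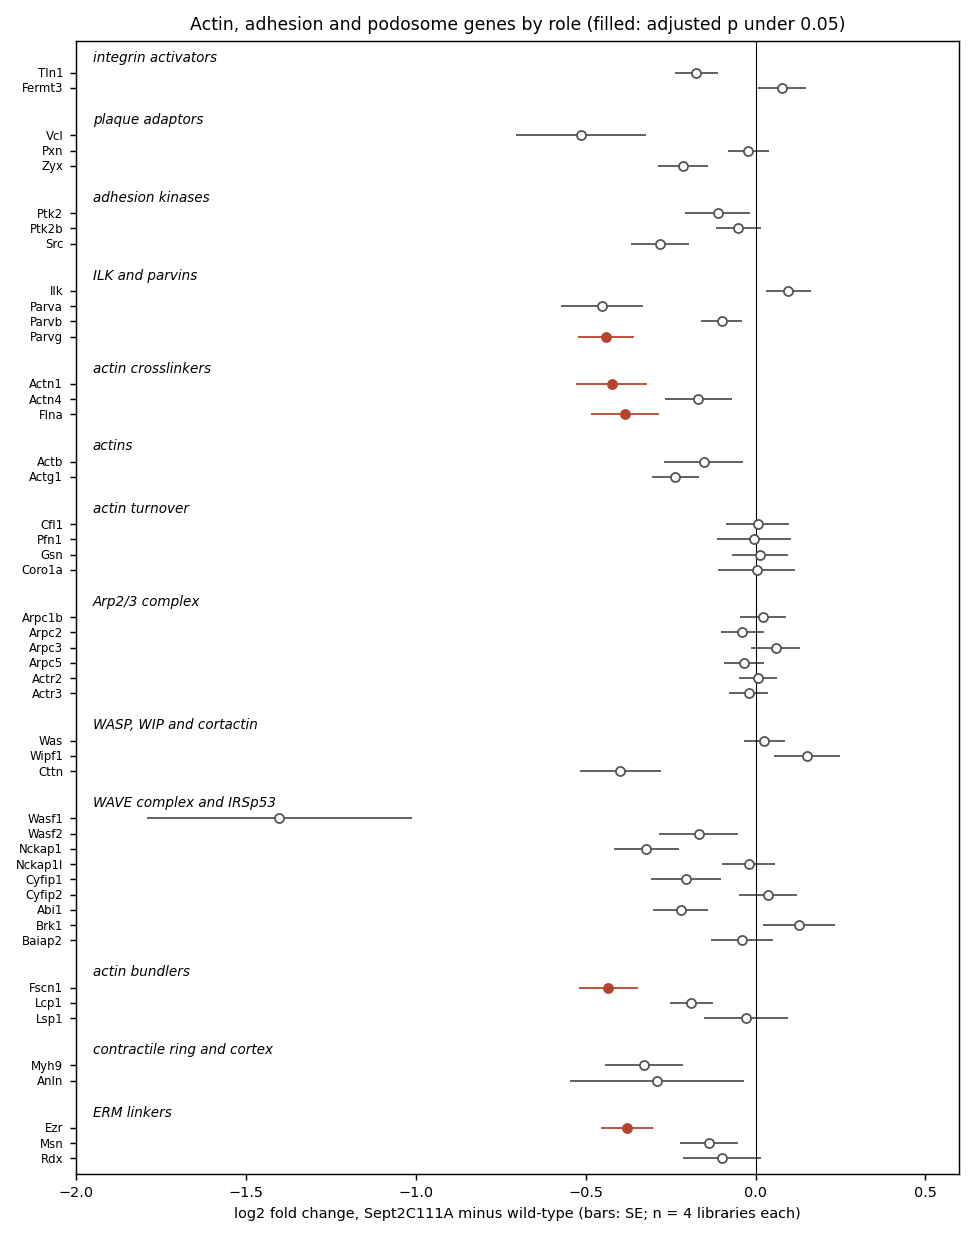
Log2 fold change of each of the 47 genes, Sept2C111A minus wild-type, with its SE, grouped by role along the vertical axis; filled red points were called. The 5 called genes lie between -0.44 and -0.38, the Arp2/3 and actin turnover genes lie near 0, and Wasf1, a gene of very few reads, lies farthest out.

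The integrin activators were not called. Tln1 encodes talin 1, which binds integrin tails and pulls them into the active state. It was measured at 703, 742, 719 and 732 CPM in wild-type libraries 1 to 4 and at 660, 653, 585 and 670 CPM in Sept2C111A libraries 1 to 4. The genotypes did not overlap, and the log2 fold change was -0.17 (SE 0.064, adjusted p = 0.12). Fermt3, the kindlin of blood cells and the second integrin activator, measured 344, 350, 335 and 343 CPM in the wild-type libraries, against 353, 381, 392 and 321 CPM in those of Sept2C111A. These values overlapped, with a log2 fold change of 0.08 (95% interval of the fold 0.936 to 1.19).

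Among the plaque adaptors, none was called, and the 3 genes differed in size of change. Zyx encodes zyxin, a force-sensitive adaptor, and had the highest wild-type level of the 3 per kb of transcript (62.2 CPM per kb). Its libraries gave 204, 192, 192 and 205 CPM in the wild-type libraries, against 195, 170, 162 and 158 CPM in those of Sept2C111A. Only Sept2C111A library 1 reached the wild-type range (log2 fold change -0.21, adjusted p = 0.11). Vcl, which encodes vinculin, the tension-bearing link from talin to actin, measured 63.4, 68.1, 74.7 and 64.2 CPM in wild-type libraries and 54.2, 37.3, 31.6 and 66.3 CPM in Sept2C111A libraries. Sept2C111A libraries 1, 2 and 3 lay below the wild-type range, libraries 2 and 3 the farthest, whereas library 4 lay inside the wild-type range (log2 fold change -0.51, SE 0.19, adjusted p = 0.13). Pxn, the scaffold paxillin, measured 192 to 199 CPM and 179 to 209 CPM, with a fold of 0.986 (95% interval 0.889 to 1.09). Windows of 50 bases that also occur in transcripts of the neighbouring gene Ap3m1 make up 39.2% of the Vcl transcript, so part of its reads had to be shared out.

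The adhesion kinases were not called either. Ptk2b encodes PYK2, the focal adhesion kinase relative that predominates in macrophages. It measured 232, 246, 236 and 242 CPM in the wild-type libraries, against 228, 236, 210 and 250 CPM in those of Sept2C111A. The genotypes overlapped (fold 0.966, 95% interval 0.865 to 1.08). Per kb of transcript, Ptk2b stood at 61.2 CPM in wild-type libraries against 4.33 CPM for Ptk2, the focal adhesion kinase itself. Ptk2 measured 17.1 to 21.2 CPM and 15.7 to 19.4 CPM, also overlapping. Src, the tyrosine kinase that phosphorylates plaque proteins, measured 47.7, 44.8, 48.7 and 47.2 CPM in the wild-type libraries, against 42.7, 42.5, 33.3 and 36.5 CPM in those of Sept2C111A. All 4 of its Sept2C111A values were below the wild-type range (log2 fold change -0.28, SE 0.085, adjusted p = 0.074).

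The parvins, which bind ILK at integrin tails and reach actin through their calponin homology domains, included the fall that held in the most alternatives. Parvg encodes γ-parvin, the family member of blood cells (chromosome 15, 84324175 to 84342978 in GRCm38). It measured 22.6, 27.4, 23.7 and 26.4 CPM in wild-type libraries and 18.1, 19.9, 17.4 and 18.4 CPM in Sept2C111A libraries. No Sept2C111A value reached the wild-type range, and the log2 fold change was -0.44 (SE 0.083, adjusted p = 0.012). The call held in 20 of 20 alternatives at the same threshold, at adjusted p = 0.000213 to 0.0497. Parva, the α-parvin of many adherent cells, measured 40.2, 35.1, 42.5 and 38.5 CPM in the wild-type libraries, against 33.3, 22.1, 26.5 and 32.3 CPM in those of Sept2C111A. Its groups did not overlap either, but it missed the threshold (log2 fold change -0.45, SE 0.12, adjusted p = 0.051). Parvb, the β-parvin, lies beside Parvg on chromosome 15 at 84232043 to 84315689. It measured 93.8 to 106 CPM in the wild-type libraries, against 89.1 to 96.0 CPM in those of Sept2C111A, with a fold of 0.933 (95% interval 0.842 to 1.03). Of the Parvg and Parvb level per kb together, Parvg made up 25.1%, 29.7%, 25.8% and 26.5% in the wild-type libraries, against 21.4%, 24.3%, 22.0% and 21.9% in those of Sept2C111A. Ilk, the pseudokinase that carries the parvins, measured 200 to 220 CPM and 209 to 242 CPM. That gene shares 73.2% of its 50-base windows with other transcripts, mostly those of Taf10, and its own level is therefore uncertain.

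Of the 3 actin crosslinkers, Actn1 and Flna fell and Actn4 was not called. Actn1 encodes α-actinin 1, a rod that ties filaments side by side in adhesions (chromosome 12, 80167542 to 80260420). It measured 269, 255, 293 and 274 CPM in the wild-type libraries, against 224, 184, 168 and 237 CPM in those of Sept2C111A. All 4 lay below the wild-type range, libraries 2 and 3 the farthest (log2 fold change -0.42, SE 0.10, adjusted p = 0.037). Its paralogue Actn4, also expressed in moving cells, measured 273 to 302 CPM and 214 to 303 CPM and was not called. Of the 2 paralogues' level per kb, Actn1 made up 49.1%, 46.7%, 51.2% and 51.0% in wild-type and 45.9%, 44.7%, 44.9% and 44.9% in Sept2C111A libraries. The share was thus lower in every Sept2C111A library than in any wild-type library.

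Flna encodes filamin A, a hinge that crosses filaments at wide angles and binds integrin tails (chromosome X, 74223461 to 74249854). The wild-type libraries gave 1005, 1090, 1066 and 1021 CPM and the Sept2C111A libraries 853, 736, 672 and 945 CPM. The highest Sept2C111A value lay below the lowest wild-type value (log2 fold change -0.38, SE 0.099, adjusted p = 0.045). Actn1 and Flna both missed the threshold when any 1 of the wild-type libraries, or library 2 of Sept2C111A, was left out (adjusted p = 0.061 to 0.14), and when libraries 2 and 3 of Sept2C111A were left out together (log2 fold change -0.24 and -0.22, adjusted p = 0.078 and 0.099). The call of Flna was also lost without Sept2C111A library 1 or 3 (adjusted p = 0.052 and 0.056). With the replicate block the adjusted p was 0.061 for Actn1 and 0.081 for Flna.

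**Figure D2:**
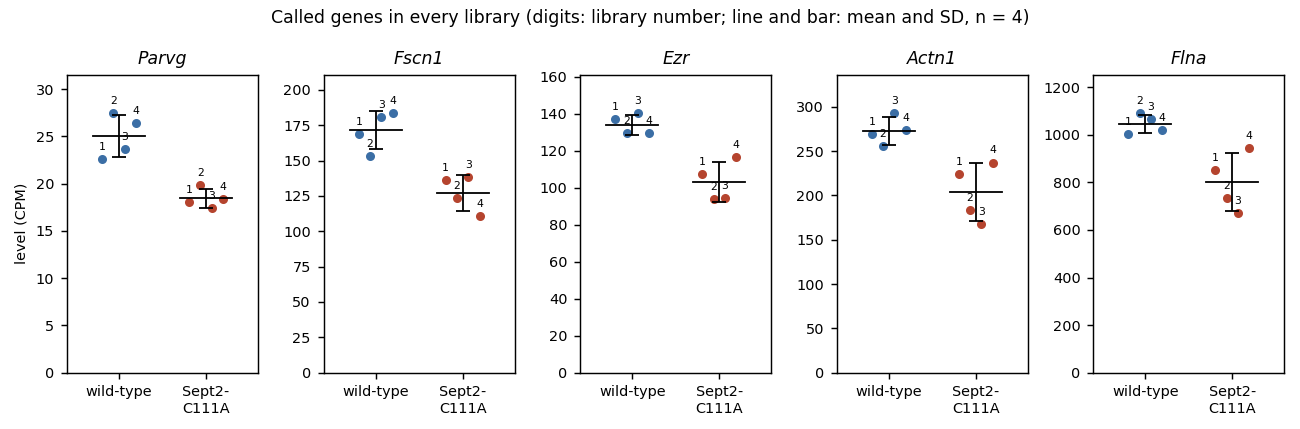
CPM of the 5 called genes in each library, with digits for library numbers and the mean ± SD of 4 libraries per genotype; every vertical axis starts at 0. No Sept2C111A library reached the wild-type range in any panel, and the spread among Sept2C111A libraries was narrowest for Parvg, from 17.4 to 19.9 CPM.

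Of the bundlers, which pack filaments in parallel, Fscn1 fell and the other two were not called. Fscn1 encodes fascin, the bundler of filopodia and of podosome caps (chromosome 5, 142960355 to 142973189). It measured 169, 154, 181 and 183 CPM in the wild-type libraries, against 136, 123, 138 and 111 CPM in those of Sept2C111A. Here library 4 was the lowest of the Sept2C111A libraries (log2 fold change -0.43, SE 0.085, adjusted p = 0.016). Fscn1 missed the threshold when wild-type library 1, 3 or 4, or library 2 of Sept2C111A, was left out (adjusted p = 0.054 to 0.071). It held without Sept2C111A libraries 2 and 3 together. Lcp1, which encodes L-plastin, the leukocyte bundler, measured 2785, 2965, 2780 and 2815 CPM in the wild-type libraries, against 2431, 2592, 2401 and 2525 CPM in those of Sept2C111A. The groups did not overlap (log2 fold change -0.19, SE 0.063, adjusted p = 0.097). Lsp1, an F-actin binding protein of leukocytes, measured 189 to 229 CPM and 161 to 248 CPM and overlapped (fold 0.981, 95% interval 0.796 to 1.21).

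Among the ERM proteins, which link the membrane to cortical actin, Ezr fell. It encodes ezrin (chromosome 17, 6738131 to 6782780) and measured 137, 129, 140 and 130 CPM in the wild-type libraries, against 107, 94.1, 94.5 and 116 CPM in those of Sept2C111A. The groups were apart (log2 fold change -0.38, SE 0.078, adjusted p = 0.019). Ezr missed the threshold when wild-type library 1 or 3, library 2 of Sept2C111A, or both libraries 2 and 3 of Sept2C111A were left out (adjusted p = 0.053 to 0.078). Msn, which encodes moesin, measured 1018 to 1109 CPM in the wild-type libraries, against 807 to 1052 CPM in those of Sept2C111A. Per kb of transcript, moesin RNA was 6.41 times as abundant as ezrin RNA in wild-type libraries. Rdx, the radixin gene, measured 71.6 to 83.8 CPM and 59.5 to 89.2 CPM. Neither Msn nor Rdx was called (folds 0.910 and 0.934, 95% intervals 0.788 to 1.05 and 0.770 to 1.13).

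The 2 cytoplasmic actin genes had the highest levels per kb of the 47 and took 37.2% of their summed CPM in wild-type libraries. Actb, the β-actin gene, measured 6856, 6425, 6647 and 7446 CPM in the wild-type libraries, against 5984, 6139, 7555 and 4951 CPM in those of Sept2C111A. Sept2C111A libraries 1, 2 and 4 were below and library 3 above every wild-type library, so the genotypes overlapped (log2 fold change -0.15, SE 0.12, adjusted p = 0.45). Actg1, the γ-actin gene, measured 3963, 3868, 4038 and 4059 CPM in the wild-type libraries, against 3562, 3166, 3566 and 3226 CPM in those of Sept2C111A. Its groups did not overlap, and it was not called (log2 fold change -0.24, SE 0.069, adjusted p = 0.067). In the Actg1 transcript, 56.7% of the 50-base windows recur in other annotated genes, most of them in the pseudogene Gm12715. For Actb the share is 14.2%. The 2 genes summed gave 10293 to 11505 CPM in the wild-type libraries, against 8178 to 11120 CPM in those of Sept2C111A.

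Actin and vinculin genes are textbook targets of serum response factor, which binds a motif called the CArG box and is controlled through the pool of free actin. Promoters were at hand in RefSeq (GRCm38.p6) for 37 of the 47 genes, and the 250 bases before each start were searched on both strands. The remaining genes of the 47 were not searched. A CArG box was present in 2 of the 37 (5.41%), Vcl and Actg1, against 1.38% of tested genes and 1.47% of all promoters in the table. The windows around these 2 matches, the only CArG boxes found, are shown. Capitals mark the CArG box.
Vcl, chr14:20929148-20929240, plus strand: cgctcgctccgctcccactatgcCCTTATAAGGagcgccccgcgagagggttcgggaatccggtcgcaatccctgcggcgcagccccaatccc
Actg1, chr11:120348516-120348645, minus strand: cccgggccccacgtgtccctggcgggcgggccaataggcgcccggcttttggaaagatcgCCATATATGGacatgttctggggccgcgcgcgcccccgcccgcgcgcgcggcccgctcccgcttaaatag

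The Vcl match lies 227 to 218 bases and the Actg1 match 90 to 81 bases before the start. Of the 5 genes that fell, all have a promoter in the table and none holds a CArG box in this window. The TEAD core CATTCC was present in 7 of 37 promoters (18.9%), against 12.6% of tested genes and 12.6% of all promoters. These were Actn4, Arpc2, Flna, Lcp1, Pfn1, Vcl and Wasf1, of which Flna alone was called. The GC box GGGCGG was present in 27 (73.0%, against 63.3% and 32.7%). The PU.1 core GAGGAAGT was present in 0 of 37, against 3.16% of tested genes and 2.44% of all promoters. No matches of different motifs overlapped. A match is a run of letters and no shown binding site.

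The genes of filament turnover had folds near 1 in the main fit. Pfn1, which encodes profilin 1 and feeds actin monomers to growing ends, was the most abundant of them per kb. It measured 1303, 1190, 1250 and 1295 CPM in the wild-type libraries, against 1234, 1218, 1550 and 1019 CPM in those of Sept2C111A. Library 3 was above and library 4 below all wild-type libraries, and the fold of 0.997 had a 95% interval of 0.828 to 1.20. The same order of these libraries held for Cfl1 (cofilin, which severs filaments), Gsn (gelsolin, which severs and caps) and Coro1a (coronin 1A). Sept2C111A libraries 3 and 4 gave 2446 and 1820 CPM for Cfl1, 494 and 382 CPM for Gsn, and 394 and 254 CPM for Coro1a. The wild-type ranges were 1967 to 2188, 394 to 438 and 312 to 343 CPM. The folds of these 3 genes were 1.00, 1.01 and 1.00, with 95% intervals within 0.828 to 1.22.

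None of the 6 Arp2/3 subunit genes was called, and their log2 fold changes ran from -0.04 to 0.06. Arpc2, the subunit that forms the backbone of the complex and the most abundant per kb, measured 841, 791, 830 and 813 CPM in the wild-type libraries, against 782, 770, 863 and 771 CPM in those of Sept2C111A. Library 3 stood above the other Sept2C111A libraries, and the genotypes overlapped. The folds of Arpc1b, Arpc2, Arpc3, Arpc5, Actr2 and Actr3 were 1.02, 0.973, 1.04, 0.977, 1.01 and 0.986. Their 95% intervals lay within 0.874 to 1.18, so falls of the size seen for Actn1 or Flna lie outside them. Windows of 50 bases that recur in other genes make up 49.8% of the Actr3 and 42.2% of the Arpc1b transcript. The levels of these genes are therefore less certain. For Actn1 the share is 10.2%. Summed over the complex, the level was 3211 ± 36.7 CPM in the wild-type libraries, against 3201 ± 122 CPM in those of Sept2C111A (mean ± SD, n = 4). The wild-type levels per kb ranged from 79.9 CPM for Actr2 to 569 CPM for Arpc2.

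Of the WASP group, Was and Wipf1 were not called. Was encodes WASP, the activator of Arp2/3 in blood cells and a hallmark of podosome cores. It measured 92.2, 97.2, 95.3 and 92.2 CPM in the wild-type libraries, against 96.6, 98.4, 88.2 and 100.4 CPM in those of Sept2C111A. The genotypes overlapped (fold 1.02, 95% interval 0.919 to 1.13). Wipf1, which encodes the WASP-stabilizing partner WIP, measured 75.3 to 91.4 CPM and 80.9 to 111 CPM (fold 1.11, 95% interval 0.941 to 1.31). Cttn, which encodes cortactin, a branch stabilizer found in many adherent cells, measured 41.9, 36.2, 42.6 and 37.8 CPM in the wild-type libraries, against 34.5, 24.2, 26.6 and 34.9 CPM in those of Sept2C111A. Its groups did not overlap (log2 fold change -0.40, SE 0.12, adjusted p = 0.070).

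No gene of the WAVE complex, the Rac-driven activator of Arp2/3 at the leading edge, was called. The highest level per kb in this group was that of Brk1, the smallest subunit, at 212, 199, 206 and 222 CPM in the wild-type libraries, against 213, 231, 283 and 189 CPM in those of Sept2C111A. Its Sept2C111A libraries spread on both sides of the wild-type range (fold 1.09, 95% interval 0.912 to 1.31). Nckap1l, the blood-cell form of the large NAP1 subunit, measured 623 to 677 CPM and 564 to 720 CPM (fold 0.986, 95% interval 0.862 to 1.13). Nckap1, its counterpart outside blood, measured 19.4 to 23.5 CPM in the wild-type libraries, against 14.9 to 18.9 CPM in those of Sept2C111A. These groups did not overlap (log2 fold change -0.32, SE 0.096, adjusted p = 0.070). Nckap1l supplied 96.7 ± 0.398% of the level per kb of this pair in wild-type and 97.3 ± 0.303% in Sept2C111A libraries.

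The other genes of this group overlapped between the genotypes, except Wasf1, which had very few reads. Cyfip1, the Rac-binding subunit, measured 322 to 363 CPM in the wild-type libraries, against 253 to 367 CPM in those of Sept2C111A, and Cyfip2 66.4 to 69.5 and 60.5 to 81.7 CPM. Cyfip2 made up 15.2% to 16.6% of the pair's level per kb in wild-type and 17.7% to 18.9% in Sept2C111A libraries, which did not overlap. Abi1, the adaptor subunit, measured 234 to 275 CPM and 191 to 236 CPM (log2 fold change -0.22, adjusted p = 0.12). Wasf2, the WAVE2 gene, measured 138 to 160 CPM and 102 to 162 CPM. Wasf1, the WAVE1 gene, had only 14, 12, 18 and 12 reads in wild-type and 10, 3, 4 and 3 reads in Sept2C111A libraries. Its log2 fold change of -1.40 (SE 0.39, adjusted p = 0.058) rests on those few reads. Baiap2, which encodes IRSp53, a membrane-curving partner of WAVE, measured 22.1 to 28.0 and 22.7 to 26.9 CPM (fold 0.973, 95% interval 0.832 to 1.14).

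The 2 genes of the contractile cortex were not called. Myh9, the heavy chain of non-muscle myosin IIA, measured 746, 747, 806 and 799 CPM in the wild-type libraries, against 704, 608, 464 and 690 CPM in those of Sept2C111A. Every Sept2C111A library lay below the wild-type range, library 3 by far the most (log2 fold change -0.33, SE 0.12, adjusted p = 0.11). Anln encodes anillin, a scaffold that binds actin, myosin and septins in dividing cells. It measured 3.72, 4.52, 4.76 and 4.44 CPM in the wild-type libraries, against 4.82, 2.65, 1.93 and 4.78 CPM in those of Sept2C111A. Libraries 2 and 3 were below and libraries 1 and 4 just above the wild-type range (log2 fold change -0.29, SE 0.26, adjusted p = 0.52). Of 6 proliferation markers, Mki67 fell, from a mean of 48.4 to 28.9 CPM, and the others were not called. The median log2 fold change of this list was -0.51, with Cdk1 at 0.01. Summed, the list gave 78.4 to 82.6 CPM in wild-type and 49.0 to 63.9 CPM in Sept2C111A libraries, which did not overlap.

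**Figure D3:**
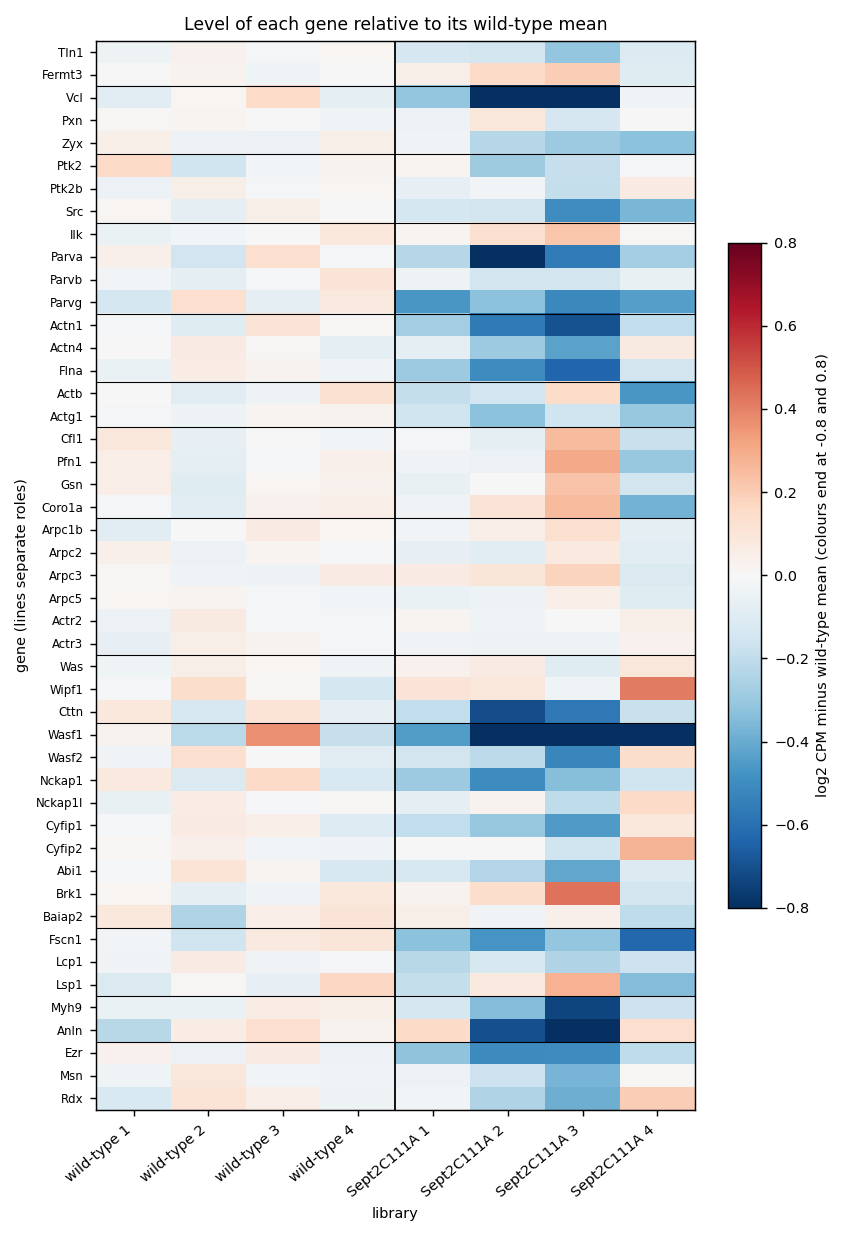
Log2 CPM of each of the 47 genes (rows, in the order of roles) in each of the 8 libraries (columns), relative to the gene's wild-type mean. The rows of Parvg, Actn1, Flna, Fscn1 and Ezr are blue in all 4 Sept2C111A columns, while Sept2C111A libraries 3 and 4 have opposite colours in the rows of Cfl1, Pfn1, Gsn and Coro1a.

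The Sept2C111A libraries differed among themselves in these genes. The SD of log2 CPM was larger in Sept2C111A than in wild-type libraries for 42 of the 47, with medians of 0.15 and 0.06. For all tested genes the medians were 0.18 and 0.10. Library 3 held the lowest Sept2C111A value for 22 of the 47 and the highest for 15, library 4 the lowest for 16 and the highest for 20. Library 1 held the lowest value for 0 genes. The number of the 47 below all 4 wild-type libraries was 26, 29, 30 and 26 in Sept2C111A libraries 1 to 4, or 55.3%, 61.7%, 63.8% and 55.3%. Among all tested genes these shares were 23.7%, 34.4%, 38.2% and 30.7%.

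Transcript length moved with these differences. Relative to the wild-type mean, the 10 genes with transcripts under 2 kb had a median log2 deviation of 0.20 in Sept2C111A library 3, and the 14 genes over 4 kb one of -0.42. In Sept2C111A library 4 the order was the opposite, at -0.22 and 0.03. Over all tested genes, those under 2 kb were at 0.28 and those over 4 kb at -0.22 in library 3, and at -0.06 and 0.08 in library 4. With the trend on length removed from each library, an alternative added after these values were seen, 10 of the 47 genes fell, against 5.95% of all tested genes. The 5 called genes were among them, with log2 fold changes of -0.45 (Parvg), -0.44 (Fscn1), -0.40 (Actn1), -0.37 (Ezr) and -0.31 (Flna). The others were Parva, Actg1, Cttn, Wasf1 and Myh9. In the same alternative the turnover genes Pfn1, Cfl1, Gsn and Coro1a were at -0.15, -0.02, 0.004 and -0.06. The Arp2/3 genes ran from -0.12 (Arpc2) to 0.04 (Actr2). None of these was called.

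**Figure D4:**
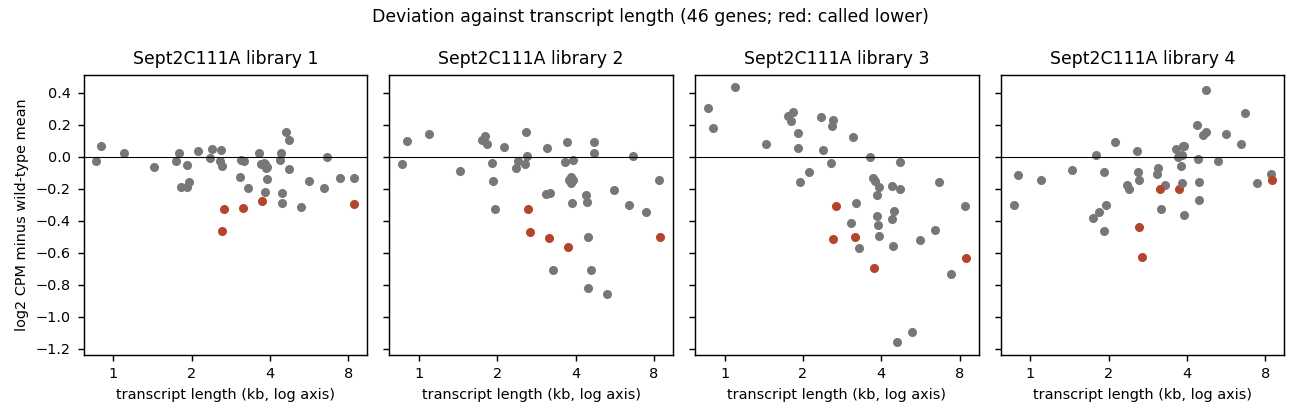
Log2 CPM relative to the wild-type mean against transcript length in kb (log axis) in each Sept2C111A library, for 46 genes (Wasf1, with few reads, is left out); red points are the 5 called genes. In library 3 most short transcripts lie above 0, with Actg1 below, and long ones lie below. In library 4 short ones lie lower than long ones by their medians, and the red points are below 0 in all 4 panels.

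Some markers of other cells also differed between the genotypes. Of the 12 stromal markers, 11 were tested, and Col1a1, Postn and Fbn1 fell (list median log2 fold change -0.40). Of the 8 smooth muscle markers, 7 were tested, and Acta2, Tagln, Actg2, Lmod1 and Mylk fell (list median -0.74). The summed stromal level was 4476, 3758, 3552 and 4436 CPM in Sept2C111A libraries 1 to 4, lowest in libraries 2 and 3. Of the 5 called genes, Actn1, Flna and Ezr were lowest in these libraries too. For Parvg the lowest libraries were 3 and 1 and for Fscn1 4 and 2. Libraries 2 and 3 also had the largest shares of all tested genes below every wild-type library. Those shares were 23.7%, 34.4%, 38.2% and 30.7% in Sept2C111A libraries 1 to 4. No stromal or smooth muscle marker was at 0 in all libraries, and the part of these cells in the result was not tested. Of the 10 macrophage markers, 0 were called (summed level 25653 to 27542 and 23637 to 25614 CPM). Of the 7 endothelial and epithelial markers, 3 were tested, and Pecam1 rose from 2.92 ± 0.097 to 4.02 ± 0.22 CPM (adjusted p = 0.045, list median 0.32). The summed level of this list was 4.15 to 4.49 CPM in wild-type and 5.04 to 5.82 CPM in Sept2C111A. Neutrophil, lymphocyte and dendritic cell lists had summed levels of at most 8.18 CPM in any library.

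**Figure D5:**
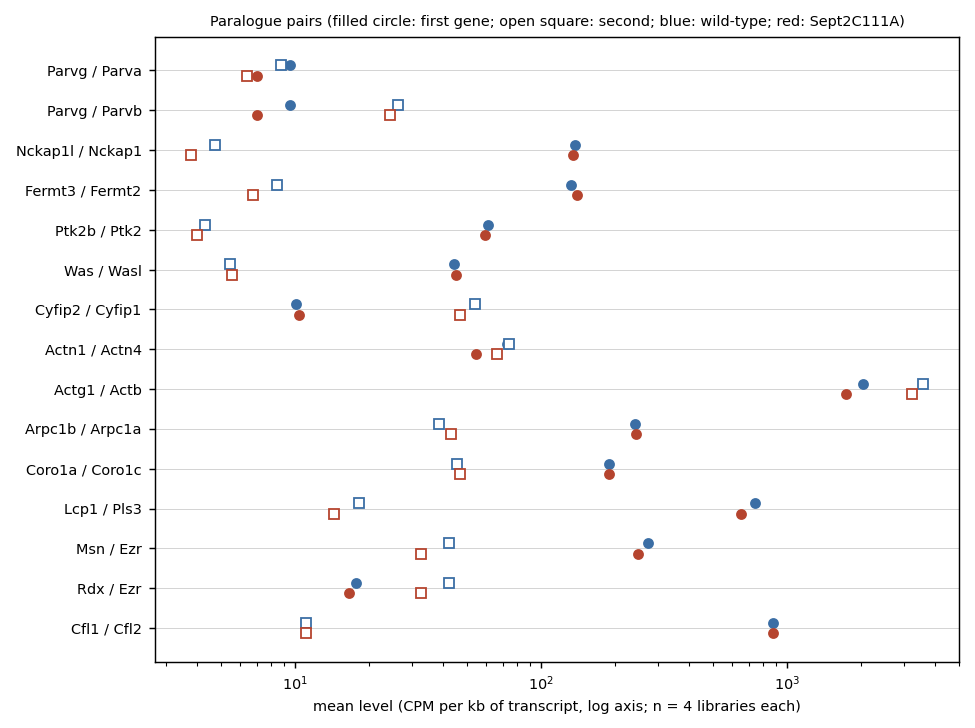
Mean level in CPM per kb of transcript (log axis) of both genes of 15 paralogue pairs, in wild-type (blue) and Sept2C111A (red) libraries; filled circles stand for the first gene named and open squares for the second. Nckap1l, Fermt3, Ptk2b, Was, Lcp1, Coro1a and Arpc1b lie to the right of their paralogues in both genotypes, and the red and blue symbols of Cfl1 lie almost on top of each other.

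Of 93 further genes of actin and adhesion, 92 were tested, and 5 fell and 2 rose. The falls were 5.43% of those tested, where 3.03% of all tested genes fell and 3.43% rose. The median log2 fold change of these further genes was -0.04. Tpm4, a tropomyosin that coats filaments, fell from 932 ± 37.2 to 673 ± 57.0 CPM (log2 fold change -0.47, adjusted p = 0.0046). Myo1e, a membrane-linked class I myosin, fell from 146 ± 8.14 to 113 ± 6.75 CPM, and Daam1, a formin, from 29.0 ± 1.68 to 20.9 ± 2.17 CPM. Pdlim1, an α-actinin-binding adaptor, fell from 9.52 ± 0.449 to 6.75 ± 1.23 CPM. Pdlim1 missed the threshold when any 1 of the wild-type libraries, or library 2 or 3 of Sept2C111A, was left out, and when both of the latter were (adjusted p = 0.079 to 0.15).

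Both genes that rose are relatives of genes in the list of 47. Lpxn encodes leupaxin, the paxillin relative of blood cells, and measured 25.4, 24.5, 23.8 and 23.8 CPM in the wild-type libraries, against 34.1, 35.1, 35.4 and 36.2 CPM in those of Sept2C111A. The libraries of each genotype were tightly grouped (log2 fold change 0.53, SE 0.060, adjusted p = 0.00078), while Pxn overlapped between the genotypes. Abi3, a relative of the WAVE subunit gene Abi1, measured 35.2, 29.5, 31.3 and 34.4 CPM in the wild-type libraries, against 48.5, 56.9, 60.1 and 41.7 CPM in those of Sept2C111A. All 4 of its Sept2C111A values were above the wild-type range (log2 fold change 0.67, SE 0.11, adjusted p = 0.0069). By list, the falls came from the podosome and myosin genes (2 of 14), the formins (1 of 11) and the adhesion adaptors (1 of 24), with 1 more not described. None of 18 tested genes of capping, severing and monomer binding was called.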

How the data were processed

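Poly(A) RNA was measured in 8 libraries, 4 per genotype. The authors deposited expected counts, estimates that can hold fractions, by gene symbol. Per the submitters' processing notes, mm10 and the tools RSEM 1.3.1, Bowtie2 and DESeq2 1.4.5 were used, with no roles stated. Totals were 19543958 to 21288493 per library, and counts were rounded. edgeR 4.0.16 (R 4.3.3) tested 12462 genes after filterByExpr (minimum count 10) with TMM factors, the quasi-likelihood test and Benjamini-Hochberg adjustment, called at adjusted p under 0.05. The SE is the log2 fold change divided by the root of F, and 95% intervals used 6 degrees of freedom. The procedure was tested on simulated data, with a coefficient of variation of 0.1 in both groups, below that of the Sept2C111A libraries: 99.0% of changes of log2 size 1 and 64.3% of size 0.5 were recovered, with 8 false calls among 12390 genes. Levels per kb used the longest principal GENCODE transcript. Alternatives changed scaling, filter, tool, threshold, block, length trend and libraries left out (limma 3.58.1, DESeq2 1.42.0). The members and lists were chosen with earlier results of these data known. Called members, and the most abundant member per kb of each role without a call, were given in every library; other members by fold or range, some with every library after their values were seen. The markers Cd3e, Trac and Ighm were not analysed here. One gene list and its called gene, counted among the further actin and adhesion genes, are not reported here.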

Additional observations from a re-analysis of the deposited data

Results flagged for a closer look

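Arpc2, the Arp2/3 backbone subunit gene, measured 863 CPM in Sept2C111A library 3 and 770 to 782 CPM in the other Sept2C111A libraries. The gap to the nearest library was 0.87 of the whole range of the genotype, above Dixon's critical value for 4 samples. Of 30 groups of values examined, 1 stood out in this way, and chance gives about 1 in 20.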

How the results depend on the processing

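Fold changes of single genes were compared with the main fit 462 times. Of these, 407 kept direction and side of the threshold, 43 were lost and 3 were gained. Another 9 changed sign, all 9 in genes that were not called. The settings of adjusted p under 0.01 and under 0.1 reuse the main fold changes, which could not change direction there. Part of the 43 losses came from the stricter threshold alone. The main counts were 5 of the 47 genes lower, 377 of all tested genes lower and 428 higher, and 5 lower and 2 higher among the other actin and adhesion genes. In the same order, DESeq2 gave 12, 746, 704, 12 and 4; adjusted p under 0.1 gave 12, 817, 809, 12 and 4; adjusted p under 0.01 gave 0, 84 and 136, with 2 other genes lower. limma voom gave 8 and, among the other genes, 9 lower with group weights, and 10, 678 and 665, with 13 other genes lower, with sample weights. With the length trend removed, chosen after seeing the data, the counts were 10, 733, 687, 14 and 6, and without Sept2C111A libraries 2 and 3 they were 2, 210 and 282. Leaving out 1 library at a time gave 1 to 11 of the 47 lower and 0 higher, 104 to 983 and 162 to 1094 of all tested genes, and 3 to 18 lower and 2 to 6 higher among the other genes; the median of the 47 was -0.14 to -0.08. With the replicate block, 4 of the 47 genes were lower (Ezr, Fscn1, Parva and Parvg), 252 of all tested genes lower and 242 higher. The labels do not say whether same-numbered libraries form pairs. Deviations of same-numbered libraries correlated at 0.13, 0.088, -0.019 and -0.20, and replicate 1 alone correlated best with its own number. With so few libraries per genotype, these correlations cannot decide it. Pfn1 changed sign to 0.0015 with no filter, 0.016 and 0.014 without wild-type library 1 or 4, and 0.0047, 0.015 and 0.090 without Sept2C111A library 1, 2 or 4, so that leaving out 1 library gave -0.12 to 0.090. Was changed to -0.0051 with the length trend removed, and Fermt3 to -0.024 and Brk1 to -0.058 without Sept2C111A libraries 2 and 3. The cause was not tested. Depth limits Wasf1, at 3 to 18 reads.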
